A study of Anopheles gambiae with 8 samples.

Results

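The prophenoloxidase (PPO) family of *Anopheles gambiae* was followed in cultured Sua 4.0 cells, an established cell line of this mosquito, after exposure to the steroid hormone 20-hydroxyecdysone (20E). Its 9 members, *PPO1* to *PPO9*, were taken by gene identifier from a count table of 13763 genes, with no threshold on a measured value. By the sample labels, cells received 20E in 10% ethanol, or 10% ethanol without the hormone (EtOH), and were harvested 24 h later for RNA-seq. The study's methods differ from the labels here, naming undiluted ethanol as the solvent for these cells and an equivalent volume of it as the control. Each group held 4 cultures from 4 independent experiments, and a 20E and an EtOH library of the same replicate number formed a pair. The cells were 1 line and were not sorted, so fewer cells making a transcript and less transcript per cell cannot be told apart.

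Prophenoloxidases are copper-containing zymogens that clip-domain (CLIP) serine proteases cut to active phenoloxidase after wounding or infection. The active enzyme oxidizes phenols to quinones, which polymerize into melanin around a wound or a pathogen. In mosquitoes these proteins are made mainly by hemocytes, the blood cells, and serpins hold their activation in check. 20E itself acts through a nuclear receptor and is produced after a blood meal.

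The libraries held from 6865599 to 14878014 counts, with the 2 libraries of pair 1 the shallowest at 6865599 (20E) and 7761718 (EtOH). Of all genes, 11655 had at least 1 count and 8180 passed the expression filter. As a check of the treatment labels, the early ecdysone-response genes *HR4* (AGAP004693) and *HR3* (AGAP009002), which encode nuclear receptors, had 5985 and 1524 counts over the 20E libraries against 9 and 5 over the EtOH libraries. Markers of hemocytes other than the PPO genes, and of other cell types, were not analysed here.

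Neighbours on chromosome arm 2L made up 6 of the 9 members, and the other 3 lay elsewhere. In the AgamP4 coordinates of the table, the cluster ran from 7441521 to 7505945, a stretch of 64.425 kb that held *PPO3* (AGAP004975), *PPO8* (AGAP004976), *PPO6* (AGAP004977), *PPO9* (AGAP004978), *PPO7* (AGAP004980) and *PPO4* (AGAP004981) in that order, 6 of 6 on the minus strand. *PPO3*, *PPO8*, *PPO6* and *PPO9* were packed tightly, with gaps of 3982, 1715 and 522 bases between their annotated spans. A gap of 9880 bases followed *PPO9*, then the short gene AGAP004979, and *PPO7* and *PPO4* stood farther off. *PPO2* (AGAP006258) lay on the same arm from 28702474 to 28705612, *PPO1* (AGAP002825) on 2R from 28007274 to 28014861, and *PPO5* (AGAP012616) on sequence not placed on a chromosome, from 20920789 to 20923374 of the unplaced set. Fragments that mapped to more than 1 place had been dropped before counting, so stretches that members share would go uncounted. How alike the members are in sequence was not analysed here.

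Transcripts of 2 members made up nearly all prophenoloxidase RNA in these cells. *PPO4* and *PPO3* together took from 95.1% to 99.3% of the family's counts in the 8 libraries. *PPO4* alone took 82.9, 74.3, 74.4 and 72.5% in EtOH replicates 1 to 4 and 68.0, 75.5, 71.6 and 58.9% in the 20E replicates. The share of *PPO8* was 0.247, 0.296, 0.216 and 0.186% in the EtOH replicates and 0.985, 1.80, 1.95 and 4.16% in the 20E replicates, and the groups did not overlap. The number of *PPO3* counts for each *PPO8* count accordingly lay between 59.5 and 143 in EtOH and between 8.72 and 30.1 after 20E.

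**Figure D1:**
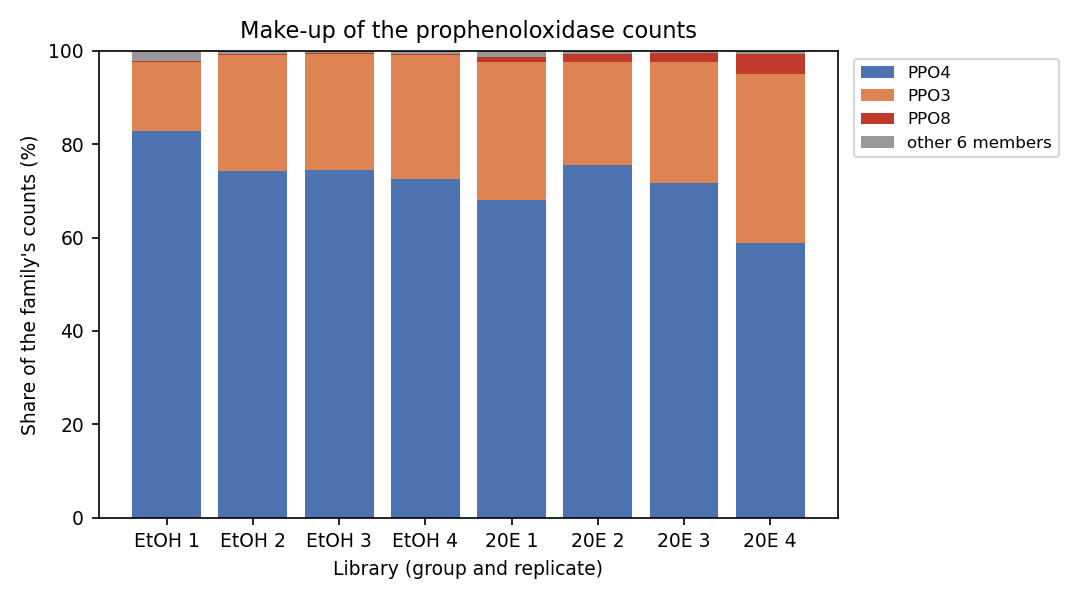
Share of each library's prophenoloxidase counts (y axis, %) taken by *PPO4*, *PPO3*, *PPO8* and the other 6 members, for the 4 EtOH and the 4 20E libraries (x axis). *PPO4* is the largest part of each bar, from 58.9% to 82.9%, and the *PPO8* segment is visible mainly after 20E, where it reaches 4.16%.

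The levels of different members were compared per kb of annotated gene span, introns included, as CPM, the counts per 1000000 counts of the library. In EtOH cells *PPO4* led with 110.1 ± 33.9 (SD, n = 4) and *PPO3* followed with 31.0 ± 7.19 CPM per kb. *PPO4* was higher than *PPO3*, and *PPO3* higher than *PPO7*, the next in order, in 4 of 4 EtOH libraries, and neither pair of ranges overlapped. Below them the group means were 0.733 ± 1.22 for *PPO7*, 0.461 ± 0.169 for *PPO9*, 0.373 ± 0.127 for *PPO8*, 0.227 ± 0.255 for *PPO5*, 0.114 ± 0.088 for *PPO2* and 0.027 ± 0.031 CPM per kb for *PPO6*. Neighbours in this lower part of the order overlapped in range. *PPO7* owed its place above *PPO9* to 1 library, since it was the higher of the pair in 1 of 4, whereas *PPO9* exceeded *PPO8* in 4 of 4.

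Among the 8180 genes tested, 6.06% had a higher EtOH level per kb than *PPO4* and 24.1% than *PPO3*. For *PPO9* and *PPO8* the figures were 91.9% and 93.1%, so both lay near the bottom of the tested genes. After 20E the order was *PPO4* (229 ± 112 CPM per kb), *PPO3* (99.4 ± 69.8), *PPO8* (10.0 ± 10.1), *PPO9* (1.49 ± 1.29), *PPO6* (0.350 ± 0.150), *PPO7* (0.339 ± 0.434), *PPO5* (0.253 ± 0.091) and *PPO2* (0.063 ± 0.062). *PPO8* thus moved from the fifth place to the third. It exceeded *PPO9* in 4 of 4 of the 20E libraries, while in EtOH it was the lower of these neighbours in 4 of 4. *PPO3* and *PPO8* did not overlap in range after 20E, and the ranges of all other neighbours did, *PPO4* and *PPO3* included, although *PPO4* was the higher in 4 of 4 libraries.

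**Figure D2:**
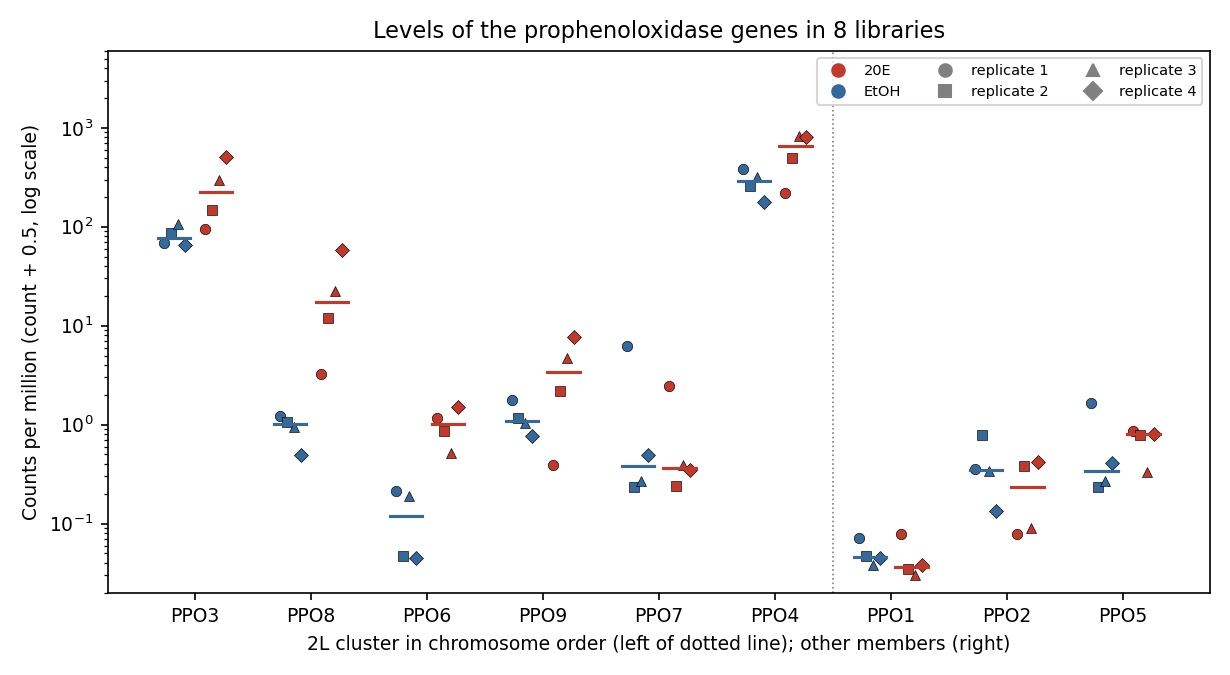
Level of each member in each library, in CPM after adding 0.5 to each count (y axis, log scale), with EtOH in blue, 20E in red, a symbol for each replicate and a bar at the group median. *PPO4* and *PPO3* sit highest, *PPO8* and *PPO6* are the members whose 20E and EtOH points do not overlap, and the *PPO1* points, at 0 counts in all 8 libraries, show only the added 0.5.

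*PPO8* was the member called after 20E. It stood at 3.15, 11.9, 22.4 and 57.5 CPM in 20E replicates 1 to 4 and at 1.14, 1.03, 0.916 and 0.452 CPM in the EtOH replicates. Every 20E library lay above every EtOH library, yet the lowest and the highest 20E libraries were far apart. The group means were 23.7 ± 23.9 and 0.884 ± 0.302 CPM (SD, n = 4), a 26.8-fold difference. Within pairs 1 to 4 the fold was 2.66, 11.1, 23.5 and 115.7.

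The edgeR quasi-likelihood test put the log2 fold change of *PPO8* at 4.75 (SE 0.85), with an adjusted p of 0.0662 over the 8180 genes, below the limit of 0.1 used for a call. Its fold change was the 8th highest of the 8180 genes and its p the 44th smallest. With the replicate number as a block, so that each 20E culture was compared with the EtOH culture of its own pair, edgeR gave 4.56 (SE 0.55) and an adjusted p of 7.09e-04. The call without the block depended on which libraries were kept. Leaving out 20E replicate 1 gave an adjusted p of 0.0143 in edgeR, while leaving out any other library raised it above 0.1. For 20E replicates 2, 3 and 4 it became 0.111, 0.146 and 0.123, and for EtOH replicates 1 to 4 it became 0.146, 0.164, 0.247 and 0.251. The log2 fold change in those fits lay between 3.83 and 5.12. Other tools without the block, on all 8 libraries, differed. DESeq2 called *PPO8* at an adjusted p of 2.94e-08, edgeR's exact test at 1.38e-05 and its likelihood ratio test at 8.73e-06. By contrast, limma-voom gave a log2 fold change of 4.34 and an adjusted p of 0.420, which is no call. With the block, in a fit added after the values had been seen, limma-voom called it at 8.98e-04.

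Over the whole family, 1 of the 4 members tested was called higher by edgeR and 0 were called lower, where 0.513% of the 8180 genes were called higher and 0.281% lower. All 4 had an unadjusted p under 0.05 in the upward direction, from 3.56e-04 to 0.0481, a limit that 557 of the 8180 genes passed in either direction. No other tool or setting called any member lower. The median log2 fold change was 1.70 for the 4 members and 0.01 for all 8180 genes. Genes were kept on their level in at least 4 libraries, whichever the group, so these figures describe the 4 tested members and not the family. *PPO8* and *PPO9* fell short of the filter's level in EtOH replicate 4, with 5 and 8 counts. Both were tested only because 20E libraries also counted, so their upward direction is not independent of the filter. With the block, *PPO3* and *PPO8* were called higher and 0 members lower, where 8.34% of all tested genes were called higher and 9.11% lower.

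*PPO3*, which limits *Plasmodium* survival in the mosquito, stood at 94.6, 146, 298 and 502 CPM in 20E replicates 1 to 4. In EtOH replicates 1 to 4 it stood at 67.9, 86.0, 106 and 64.9 CPM. The groups overlapped only through 20E replicate 1, which lay below EtOH replicate 3. In each pair the 20E library was the higher, by 1.39-, 1.70-, 2.82- and 7.73-fold. The means were 260 ± 183 and 81.1 ± 18.8 CPM (SD, n = 4). The log2 fold change was 1.68 (SE 0.48), with an adjusted p of 0.326 in edgeR's quasi-likelihood test, which is no call. Other tools without the block differed. DESeq2 called *PPO3* at an adjusted p of 0.0295, edgeR's exact test at 0.0545 and its likelihood ratio test at 0.0501. It was not called by limma-voom, at 0.467. With the block the log2 fold change was 1.42 (SE 0.33) and the adjusted p 0.0222 in edgeR, and *PPO3* was called. In fits added after the values had been seen, that call held when any 1 pair was left out, with the log2 fold change between 0.93, without pair 4, and 1.73, without pair 1.

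*PPO4*, the most abundant member, stood at 217, 500.1, 821 and 815 CPM in the 20E replicates and at 383, 259, 315 and 177 CPM in the EtOH replicates. The 20E library was the lower in pair 1, at 0.568 of its EtOH partner, and the higher in pairs 2 to 4, by 1.93-, 2.60- and 4.61-fold. The log2 fold change was 1.05 (SE 0.41), with an adjusted p of 0.628 in edgeR and of 0.142 with the block. With the block and without pair 1, a fit added after the values had been seen, it was 1.51 with an adjusted p of 0.00181 in edgeR. That fit called 585 of the 8180 genes higher. It left out the only pair in which *PPO4* was lower after 20E, so its call is not independent evidence. With all pairs kept *PPO4* passed in the blocked fit without the filter, at an adjusted p of 0.0264 in edgeR, and in edgeR's blocked likelihood ratio test, at 0.0672. Without the block it did not pass when pair 1 was left out, at 0.111, so the call depended on the block, the filter, the tool and pair 1.

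*PPO9* showed the same division between pair 1 and the rest. It stood at 0.315, 2.14, 4.64 and 7.63 CPM in the 20E replicates and at 1.71, 1.12, 0.992 and 0.724 CPM in the EtOH replicates. 20E replicate 1, with 2 counts, was the lowest of the 8 libraries, and the other 3 of the 20E libraries lay above all EtOH libraries. The fold within pairs 1 to 4 was 0.221, 1.87, 4.53 and 9.97. The log2 fold change was 1.72 (SE 0.75), with an adjusted p of 0.726 in edgeR and of 0.158 with the block. Pair 1 was then left out, in fits added after the values had been seen. With the block edgeR gave 2.21 and an adjusted p of 0.0137, where 585 of the 8180 genes were called higher. Without the block *PPO9* did not pass, at 0.207. The pair left out was the only one in which the 20E library was the lower, so this call is not independent evidence.

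The tested members ranked the 4 pairs alike. In *PPO3*, *PPO4*, *PPO8* and *PPO9* the 20E over EtOH ratio was lowest in pair 1, next in pair 2, next in pair 3 and highest in pair 4. Of the 8180 genes tested, 7.69% had their lowest ratio in pair 1 and their highest in pair 4, and 4.25% had this full order. Of the 42 genes called higher, 6 had those extremes and 5 the full order. *HR4* and *HR3* did not follow it. The log2 ratio of *HR4* was 8.66, 8.34, 9.73 and 8.87 in pairs 1 to 4, and that of *HR3* was 6.87, 9.37, 7.62 and 6.65, so pair 1 was not the lowest for either. The 4 members are read from the same libraries and are not replicates of the pattern. Pair 1 was also the shallowest pair, and the part of depth in the pattern was not tested.

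**Figure D3:**
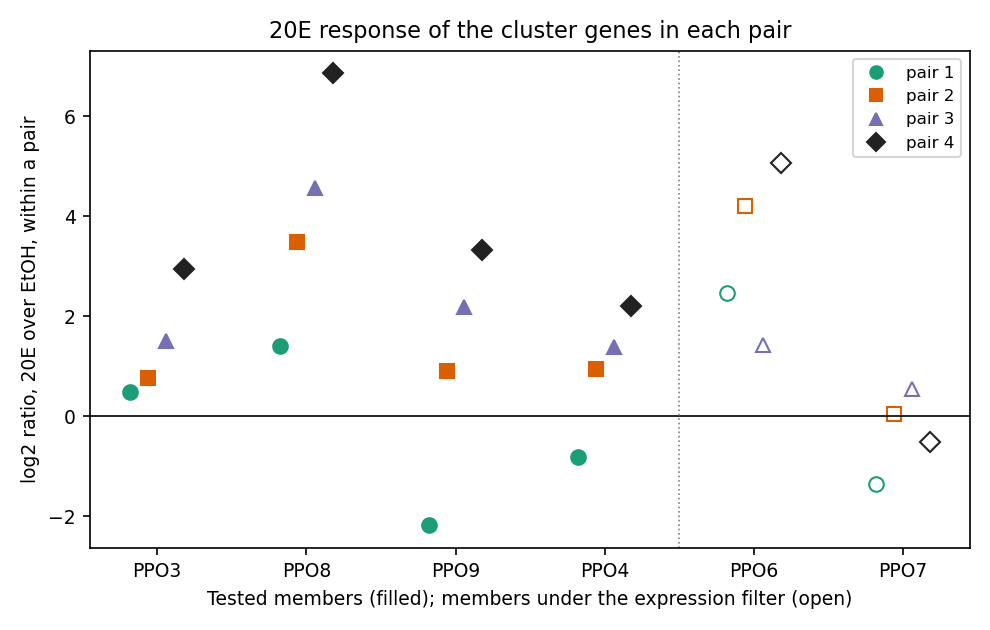
log2 ratio of 20E over EtOH within each of 4 pairs (y axis) for the 6 cluster genes (x axis), after adding 0.5 to each count. Filled symbols are members that passed the expression filter, and in these 4 genes pair 1 is lowest and pair 4 highest, from 1.41 to 6.85 for *PPO8* and from -0.82 to 2.20 for *PPO4*. Open symbols, *PPO6* and *PPO7*, rest on few counts and do not share that order.

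In the 4 tested members the spread within a group was wider after 20E. The share of all tested genes for which this held was not analysed here. The coefficient of variation over 4 libraries was 70.2% after 20E and 23.2% in EtOH for *PPO3*, 100.5% and 34.2% for *PPO8*, 86.2% and 36.7% for *PPO9*, and 49.2% and 30.8% for *PPO4*. Among the members with few counts it was wider after 20E for *PPO2* (99.0% and 77.8%) and narrower for *PPO5* (36.0% and 112%), *PPO6* (42.9% and 116%) and *PPO7* (128% and 167%). Summed over the family, the level was 320, 663, 1147 and 1385 CPM in 20E replicates 1 to 4 and 461, 348, 424 and 244 CPM in the EtOH replicates. The 20E library of pair 1 lay below 3 of the 4 EtOH libraries, and the other 20E libraries lay above all of them.

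The remaining members were too low for the test. *PPO6*, which lies between *PPO8* and *PPO9*, had 7, 12, 8 and 19 counts in the 20E replicates and 1, 0, 2 and 0 counts in the EtOH replicates. Its groups did not overlap. The ratio of the summed counts, 46 against 3 and scaled to library size, was 12.7, with a 95% exact interval from 4.10 to 64.1 that covers counting error only. When the filter was left off, edgeR gave *PPO6* a log2 fold change of 3.55 (SE 0.89) and an adjusted p of 0.245, and 0.0196 with the block, which is a call. DESeq2 called *PPO6* without the block, at an adjusted p of 0.0511. With the block, in a fit added after the values had been seen, DESeq2 called it at 0.0252.

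Groups that did not overlap, with 20E above EtOH, were thus seen in *PPO8* and *PPO6*, and among tested genes this held for 2.18%. The 20E library was the higher in 4 of 4 pairs in *PPO3*, *PPO8* and *PPO6*, as in 16.9% of tested genes. *PPO6* is not among the tested genes, so both shares come from a set with higher counts than its own. Without the filter and with the block, edgeR called 5 of the 8 members that had a count (*PPO3*, *PPO4*, *PPO6*, *PPO8* and *PPO9*), all higher, where 6.35% of 11655 genes were called higher.

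*PPO7*, the cluster gene next to *PPO4*, had too few counts outside pair 1 to be compared with its neighbours. In pair 1 its fold was 0.393, lower after 20E as for *PPO4* and *PPO9*. The ratio of its scaled sums was 0.439 (95% exact interval 0.267 to 0.707, counting error only). It had 15, 3, 6 and 4 counts in the 20E replicates and 43, 2, 3 and 5 in the EtOH replicates. Replicate 1 of both groups held most of its counts, at 2.36 CPM after 20E and 6.13 CPM in EtOH, and the other libraries lay between 0.187 and 0.452 CPM. Without the filter the log2 fold change was -1.17, with an adjusted p of 0.985 in edgeR.

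Outside the cluster no member was called in any fit that held it. *PPO5* had 5, 11, 5 and 10 counts in the 20E replicates and 11, 2, 3 and 4 in the EtOH replicates, and the ratio of its scaled sums was 1.29 (95% exact interval 0.711 to 2.39, counting error only). *PPO2* had 0, 5, 1 and 5 counts in the 20E replicates and 2, 8, 4 and 1 in the EtOH replicates, a ratio of 0.609 (0.253 to 1.42). Without the filter edgeR gave both an adjusted p of 0.997. Both intervals include a ratio of 1.

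*PPO1* had 0 counts in all 8 libraries. A count of 0 over a group, read as up to 3 counts, allows a level of up to 0.0596 CPM after 20E and 0.0717 CPM in EtOH. *PPO1* is known for its response to ecdysone in other *An. gambiae* cells. Its annotated span overlaps AGAP002824 on the opposite strand, and the strand setting of the counting is not given in the sources used here, so fragments that fall in the overlap may have gone uncounted.

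Cluster and outside genes were compared by their summed counts. The cluster held from 99.6% to 99.97% of the family's counts, and the 3 genes outside it had 5, 16, 6 and 15 counts in the 20E libraries and 13, 10, 7 and 5 in the EtOH libraries. The log2 ratio of 20E over EtOH of the cluster sum was -0.53, 0.93, 1.44 and 2.51 in pairs 1 to 4. That of the outside sum was -1.15, 0.22, -0.55 and 1.26. The cluster ratio exceeded the outside ratio in 4 of 4 pairs, by 0.63, 0.71, 1.98 and 1.24, a mean of 1.14 ± 0.62 (SD, n = 4 pairs) on the log2 scale. With 5 to 16 outside counts per library, counting error alone leaves each of these excesses uncertain. Without the most counted gene of each sum, *PPO4* and *PPO5*, the mean was 2.37. The outside sum then rested on *PPO2* alone, with 11 counts over the 20E libraries and 15 over the EtOH libraries. Counts this sparse leave that value uncertain. The cluster sum is mostly *PPO4*. Without *PPO4* it gave 0.40, 0.87, 1.59 and 3.09, with the 20E library higher in 4 of 4 pairs.

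None of the genes around the cluster was called by edgeR. On the *PPO4* side, AGAP004982 had 107 counts over the 20E libraries and 94 over the EtOH libraries (log2 fold change 0.04, adjusted p 0.999 in edgeR). AGAP004983, the next gene, had 424 and 437 counts, a log2 fold change of -0.25 with an adjusted p of 0.999, and its span overlaps AGAP004984, which had 0 counts. On the *PPO3* side, AGAP004974 had 1 and 5 counts, AGAP004973 had 16 and 10, and AGAP004972 had 18 and 20. AGAP004979, the gene inside the cluster that is no member, had 4 counts, all in 20E replicate 1. Of these genes AGAP004982 and AGAP004983 passed the expression filter.

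**Figure D4:**
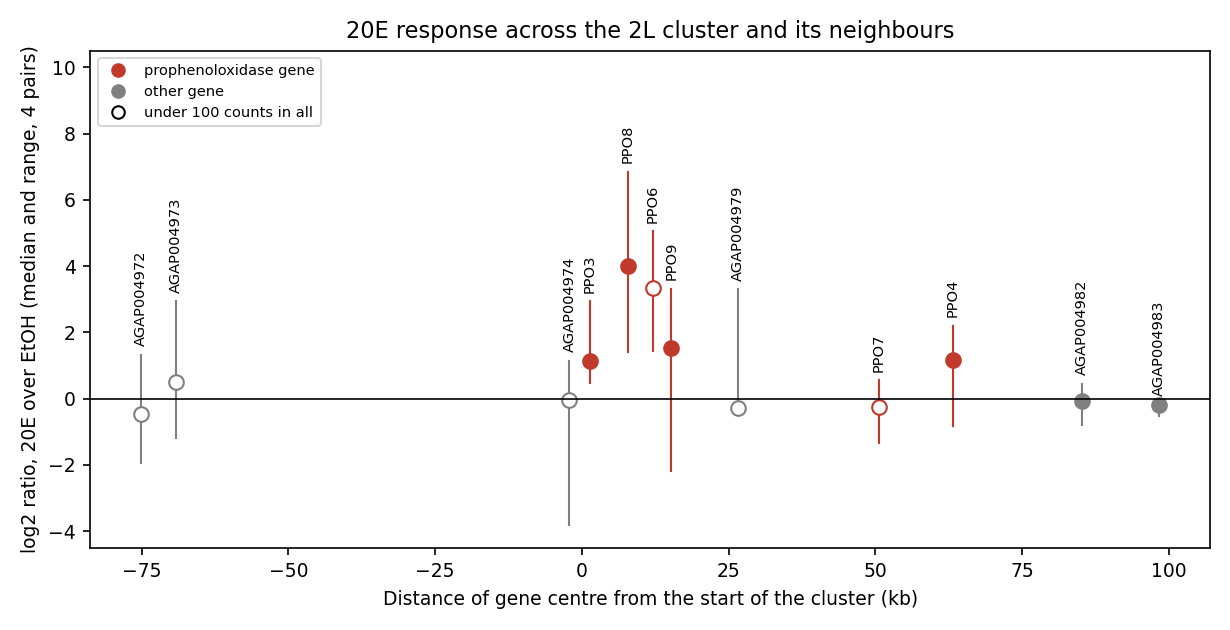
log2 ratio of 20E over EtOH (y axis; circle, median of 4 pairs; line, their range) against the distance of a gene's centre from the start of the 2L cluster in kb (x axis), for the 6 cluster members in red and the other genes with a count in grey. Open circles are genes with fewer than 100 counts over the 8 libraries. The highest values belong to *PPO8* and *PPO6*, while AGAP004982 and AGAP004983, the neighbours with filled circles, sit near 0.

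Of the melanization cascade, the identifiers of 4 proteases were named in the tables used here, and those of serpins, complement-like proteins, C-type lectins and the other melanin synthesis enzymes were not analysed here. The 4 come from the study's own gene table, which was drawn up on these libraries. Neither their direction nor the number of them called is therefore independent evidence. edgeR called 2 of 4 higher, where 0.513% of all tested genes were called higher. *CLIPC6* (AGAP000315) had 7.56, 6.29, 9.10 and 1.46 CPM in the 20E replicates and 0.428, 0, 0.382 and 0.181 CPM in the EtOH replicates, a log2 fold change of 4.60 (SE 0.83) with an adjusted p of 0.0664. *SP14D1* (AGAP009849) had 30.5, 12.8, 11.7 and 27.1 CPM against 3.71, 3.92, 1.22 and 1.90 CPM, with a log2 fold change of 2.94 (SE 0.49) with an adjusted p of 0.0515. In neither gene did the groups overlap, and 20E lay above EtOH without overlap in 2.18% of all tested genes.

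*CLIPB15* (AGAP009844) and *CLIPB20* (AGAP012037) had log2 fold changes of 1.38 and 2.45 with adjusted p-values of 0.449 and 0.624 in edgeR. With the block edgeR called 4 of 4 proteases higher, where 8.34% of all tested genes, not chosen in this way, were called higher. The 20E library was the higher in 4 of 4 pairs for each protease, as in 16.9% of all tested genes. None of the proteases had the full order of pairs seen in the 4 tested PPO genes. *CLIPB15*, *CLIPB20* and *SP14D1* had their highest ratio in pair 4, as those PPO genes did, but their lowest in pair 2. *CLIPC6* had its lowest ratio in pair 4 and its highest in pair 2.

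By Pearson correlation of log2 CPM over the 8 libraries, the genes most like the cluster sum among 8176 were AGAP013119 (r = 0.982), AGAP011582 (r = 0.952) and AGAP008269 (r = 0.944). They were chosen for that likeness, and the 8 points share the treatment and the pairing. Their changes were smaller, with log2 fold changes of 0.35, 0.35 and 0.59. AGAP008269 stood at 38.7, 48.5, 61.6 and 69.8 CPM in the 20E replicates and between 35.7 and 37.7 CPM in the EtOH replicates. In edgeR its adjusted p was 0.446 without the block and 0.0276 with it. The outside sum, which rests on 5 to 16 counts per library, was most like AGAP007491 (r = 0.927), AGAP028421 (r = 0.927) and AGAP028865 (r = 0.921), a likeness that counts this sparse leave uncertain.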

How the data were processed

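RNA of 8 Sua 4.0 cultures had been made into stranded mRNA-Seq libraries. Per the labels, the authors mapped reads with STAR 2.5.2b and counted them with featureCounts. The deposited values are raw counts per gene, whole numbers with no normalization, for 13763 genes on AgamP4. Multiply mapped and chimeric fragments had been removed. Gene lengths in the table equal the gene span, introns included, for 100% of genes. The strand setting is not given in the sources used here.

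Groups came from the sample labels. The 9 members, their cluster, the pathway lists and the tests were chosen with earlier results of these data known. Treatment was tested with the quasi-likelihood test (edgeR 4.0.16, R 4.3.3) after TMM scaling and edgeR's default expression filter. The filter requires the CPM equivalent of 10 counts in at least as many libraries as a group holds, and a total of 15. It left 8180 genes. P-values were adjusted over these genes by the Benjamini-Hochberg method, and a gene was called at 0.1 or below. SEs were derived from the F statistic. CPM values used TMM-scaled library sizes, and ratios within pairs used counts plus 0.5. Correlations were over the genes that passed the filter, members left out.

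Replicate numbers are shared by the groups and the series describes 4 independent experiments. After subtraction of group means, libraries of the same number correlated at 0.835, 0.728, 0.804 and 0.646, and libraries of unlike number and treatment at most at 0.0854, over 8180 genes. Subtracting the means lowers the values of unlike number where those of the same number are high, so the low values are not separate evidence. From the same-number values and the series description, the numbers were taken to pair the libraries. The block lowered the biological coefficient of variation from 0.400 to 0.137.

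As alternatives, the tool was replaced by DESeq2 1.42.0, by edgeR's exact or likelihood ratio test, or by voom from limma 3.58.1. The scaling was replaced by RLE factors, the filter was dropped or set at 1 CPM in 4 libraries, the prior was made robust, and the call limit was lowered to 0.05. The block was added, and each library was left out with the 8180 genes kept. Leaving out whole pairs, and other tools with the block, were chosen after seeing the data. The fits were tested on simulated data. Named were all members, the genes inside the cluster and 3 on each side, the 3 genes most like each sum, the cascade genes found, and *HR4* and *HR3*. Fragments were counted without molecular identifiers, so intervals and limits cover counting error only.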

Additional observations from a re-analysis of the deposited data

Results flagged for a closer look

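In 4 of 16 groups of 4 libraries looked at (8 members with a count, 2 treatments), 1 library stood far from the other 3, with a gap to the nearest above Dixon's 95% critical value. For normally distributed values chance gives about 1 such group in 20. *PPO7* was highest in replicate 1 of both groups, at 2.36 CPM after 20E and 6.13 CPM in EtOH. *PPO5* was highest in EtOH replicate 1, at 1.57 CPM, and lowest in 20E replicate 3, at 0.301 CPM. These members are counted with 2 to 43 fragments per library, so that rate need not hold for them, and the 2 *PPO7* groups share a replicate number.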

How the results depend on the processing

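No direction reversed in the fits run, 30 for each tested member but only 2 or 3 for *PPO2*, *PPO5*, *PPO6* and *PPO7*, none of which leaves out a library. Counts of calls moved more, and the cause was not tested. Members called higher numbered 1 as reported, 3 with DESeq2, 2 with the exact test, 2 with the likelihood ratio test, 0 with limma-voom and 0 at an adjusted p of at most 0.05. All genes called numbered 65 as reported, and 195, 141, 147, 62 and 32 in the same fits, and cascade genes called higher numbered 2 as reported, and 2, 2, 2, 1 and 0. Leaving out each library in turn gave 0 to 1 members (1 only without 20E replicate 1), 16 to 64 genes and 0 to 2 cascade genes. RLE size factors, the 1 CPM filter, no filter and the robust prior kept *PPO8* as the only member called.

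With the replicate block, 2 members, 1427 genes and 4 cascade genes were called, and without the filter 5, 1540 and 4. Of fits added after the values had been seen, leaving out pair 1, 2, 3 or 4 with the block called 4, 2, 2 and 2 members, 1277, 1235, 846 and 863 genes and 4 cascade genes each. Without the block it called 1, 0, 0 and 0 members, 75, 17, 16 and 4 genes, and 1, 0, 0 and 0 cascade genes. With the block, DESeq2 called 3 members (*PPO3*, *PPO6* and *PPO8*) of 1289 genes, the likelihood ratio test 3 (*PPO3*, *PPO4* and *PPO8*) of 1675 and limma-voom 3 (*PPO3*, *PPO8* and *PPO9*) of 1592, each with 4 cascade genes. Over 30 alternatives the log2 fold change lay between 3.55 and 5.23 for *PPO8*, which lost its call in 12 with adjusted p up to 0.473, between 0.93 and 1.96 for *PPO3*, which gained one in 12, between 0.53 and 1.51 for *PPO4* and between 0.84 and 2.33 for *PPO9*, each gaining one in 3.

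The order of EtOH levels was kept by 9 of 9 members with RLE size factors, and by 4 to 9 when an EtOH library was left out, the 4 without EtOH replicate 1. The excess of the cluster ratio over the outside ratio, uncertain from the few outside counts, was 1.14, and between 0.86 and 1.31 without 1 pair. It was 2.37 without the most counted gene of each sum, where the outside sum rested on the few counts of *PPO2*. An alternative with exon lengths was not run, since no annotation was used here. Members under about 100 counts in all are limited by depth.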
